A study of Blastobotrys raffinosifermentans with 8 samples.

Results

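The 100 most highly expressed chromosomal gene identifiers of the yeast Blastobotrys raffinosifermentans LS3 that kept a range under 1.5 on the log2 scale are described, out of 6065 identifiers with 3 or more probes. An identifier has the form ARAD1B16544g, in which the letter A, B, C or D names the chromosome and the number its place along it. The value of an identifier on 1 array was the median over its spots of the deposited log2 intensity. Identifiers were ranked by their lowest value over the 8 arrays, and the 100 highest with a range (highest minus lowest array) under 1.5 were taken. The members were thus chosen by the measured values of all 8 arrays, so their levels and ranges are given as a description, with no test.

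The wild-type strain LS3 was grown overnight on mineral medium with glucose and nitrate, pelleted, and moved either to the same medium with 1% glucose or to one with 1% glucose and 0.5% protocatechuic acid. Protocatechuic acid is a hydroxylated aromatic acid that arises when tannins are broken down, and this yeast can use it as a carbon source. Cells of each medium were harvested at 4 times (15 and 30 min, then 2 and 5 h), and each of the 8 RNA samples was hybridised to 1 single-colour array, so no medium and time point had a replicate. All groups shared the strain, the glucose and the shift to fresh medium. All 8 arrays lay on 1 slide, with the glucose arrays in one row and the protocatechuic acid arrays in another, so medium and slide row cannot be told apart. Between 58.9% and 70.2% of the yeast spots of an array were well above background.

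In yeasts the most abundant messenger RNAs are as a rule those for ribosomal proteins, for translation elongation factors, for glycolytic enzymes, for histones and for a few cell wall and stress proteins. Ribosomal protein genes are mostly short, lie scattered over the chromosomes rather than in clusters, and are known in Saccharomyces cerevisiae to be regulated together when cells meet a new carbon source or a stress. The files do not pair the identifiers with gene names or products, so none of these roles was given to a member here. A single member, ARAD1D18480g, carries an annotation in the study's scheme of aromatic acid breakdown, as a 3-oxoadipate enol-lactone hydrolase, an enzyme that opens the lactone formed after ring cleavage. Whether the probes under this identifier measure that gene was not tested.

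The levels of the members covered a wide span. The lowest value of a member on any array was 9.22 and the highest 13.27, while the median identifier lay between 5.69 and 5.73. Only 10 members never went below 11, and 35 never went below 10. By raw intensity, background included, the median member measured between 1028 and 1586 scanner units, which was 12.2 to 17.7 times the median of all identifiers on the same array. The members make up 1.65% of the identifiers and held between 15.8% and 20.9% of the linear values summed over all identifiers of an array. No spot of a member was saturated on any array, and between 98.3% and 99.2% of their spots were well above background.

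ARAD1C28314g stood first. Its values on glucose, in the order of the 4 times, were 13.11, 12.82, 12.53 and 12.04, and 13.27, 12.71, 12.93 and 12.88 with protocatechuic acid. Both 15 min arrays were its highest, and the glucose array at 5 h was its lowest. ARAD1B16544g, the next member, gave 12.66, 12.08, 12.68 and 12.64 on glucose and 12.30, 11.78, 12.12 and 12.29 with protocatechuic acid. It was lower with protocatechuic acid at each of the 4 times, and lowest at 30 min in both media. ARAD1B08998g gave 11.68, 12.54, 12.06 and 12.29 on glucose and 12.62, 11.69, 11.85 and 12.43 with protocatechuic acid. Its step from 15 to 30 min thus ran upward on glucose and downward with protocatechuic acid.

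The other 7 of the 10 highest members lay close together. ARAD1D49236g measured 11.88, 12.37, 11.94 and 11.86 on glucose and 11.66, 12.11, 12.23 and 12.25 with protocatechuic acid. ARAD1B02816g measured 12.35, 11.76, 11.88 and 12.53 on glucose and 12.64, 11.59, 11.94 and 12.11 with protocatechuic acid. In ARAD1D49236g the 15 min value was below the 30 min value in both media, and in ARAD1B02816g it was above it in both. ARAD1C08074g (mean 12.05 ± 0.37, SD over the 8 arrays), ARAD1D09636g (11.93 ± 0.45), ARAD1C42768g (11.71 ± 0.31), ARAD1C06556g (11.46 ± 0.23) and ARAD1C06028g (11.43 ± 0.34) followed. Each of these 10 ranked among the 37 highest identifiers on every array. When the 100 members were ordered by their mean, 1 of the 99 neighbouring pairs lay further apart than the larger SD of the pair, namely ARAD1C28314g and ARAD1B16544g with a gap of 0.47. Neighbours in an order of 100 means lie close by construction. The SD also holds the changes with medium and time, so nothing is read from the other pairs.

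Levels of different identifiers also rest on different probes. The SD of the level over the probes of 1 member had a median of 1.25, against 0.51 over all identifiers. In sets nearer the members in level it was 0.93 (the 100 identifiers next by the same rule) and 1.27 (the 17 left out for their range). Within the members it exceeded the SD over the 8 arrays in 98 of 100. In ARAD1C08074g it was 4.07 with 4 probes and in ARAD1B08998g 3.73 with 10 probes, whereas it was 0.24 in ARAD1B02816g with 3 probes. Which member stands above which is thus a statement about the median spot and not about transcript numbers. Differences between arrays varied far less from probe to probe: the SD over probes of the 5 h difference between media had a median of 0.13 in the members and of 0.25 over all identifiers.

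**Figure D1:**
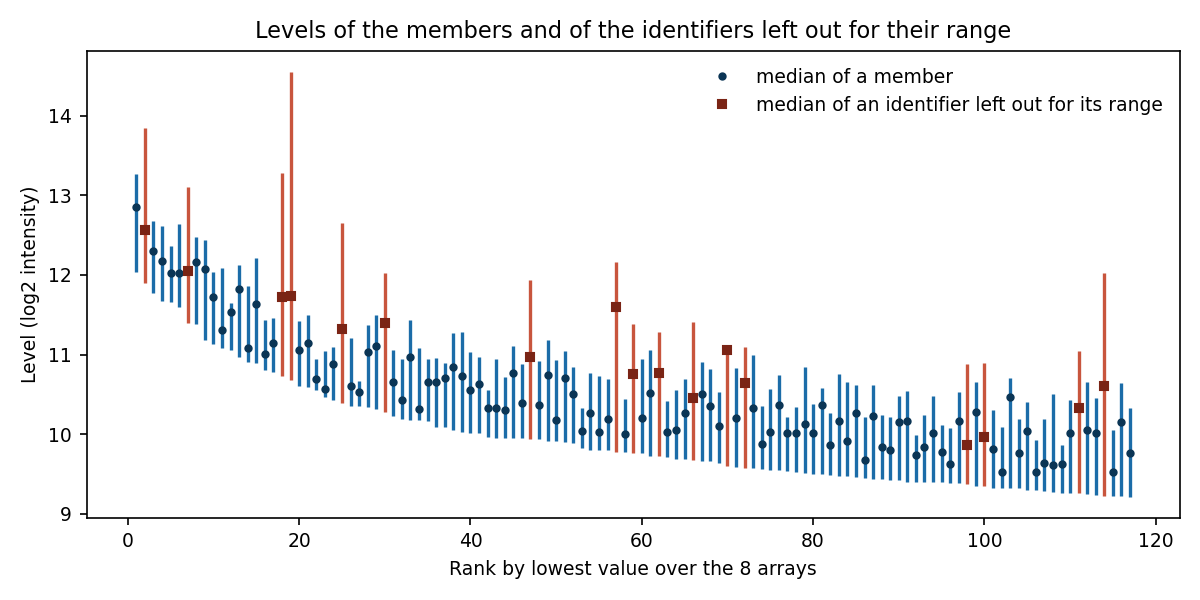
Level of each identifier (log2 intensity, vertical axis) by its rank on the lowest value over the 8 arrays (horizontal axis). Lines run from the lowest to the highest array and symbols mark the median of the 8 arrays, for the 100 members (circles) and for the 17 identifiers of the same rank span that were left out for a range of 1.5 or more (squares). ARAD1C28314g stands first, and the lines of most neighbouring members overlap.

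The range limit removed 17 identifiers that ranked above the last member. The strongest of them was ARAD1D23232g, whose lowest value was 11.89 and whose range was 1.96. The widest was ARAD1D14080g, with a range of 3.87 and its highest value, 14.55, with protocatechuic acid at 15 min. Just outside the limit lay ARAD1C17204g and ARAD1D14432g, each with a range of 1.51, and just inside it ARAD1B05104g and ARAD1C35398g, each with a range of 1.42. The last member by rank, ARAD1D19008g (lowest value 9.22), and the first identifier after it, ARAD1D00330g (9.22), differed by 0.0003. The difference between 2 spots of 1 probe on 1 array was far larger, with a median of 0.19 over 56 member probes printed in duplicate.

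Steadiness was relative. The range over the 8 arrays had a median of 0.96 in the members and of 0.88 over all identifiers, and 55 members against 57.1% of all identifiers had a range under 1. The rule used the range, so this is a description. The 2 groups also lie at unlike levels. Every spot was well above background on all 8 arrays in 92 members and in 22.9% of all identifiers. How far nearness to background sets the ranges was not tested. The steadiest member was ARAD1C25256g, with 10.57, 10.50, 10.57 and 10.39 on glucose, 10.35, 10.40, 10.56 and 10.67 with protocatechuic acid, and a range of 0.33. ARAD1D44638g followed with a range of 0.39 around a mean of 10.73. At the other end, ARAD1B05104g measured 9.22, 10.45, 10.31 and 10.02 on glucose and 9.43, 10.25, 10.05 and 10.64 with protocatechuic acid. Its 15 min values were its lowest in both media.

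That pattern was common among the members. The lowest of the 8 arrays was a 15 min array in 70 members (33 on glucose and 37 with protocatechuic acid), against 11.9% and 31.5% of all identifiers for these arrays. The count on glucose is thus above its share, and that with protocatechuic acid close to it. The highest was the 30 min array of either medium or the 5 h array with protocatechuic acid in 76 members, against 37.2% of all. In 73 members the 15 min value lay below the 30 min value in both media, which held for 42.0% of all identifiers, for 54.8% of the 914 other identifiers whose last probe ended before base 600, and for 66 of the 100 identifiers that came next by the same rule. The opposite order in both media was seen in 14 members. Since the members were selected on all 8 arrays, none of these shares was tested.

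From 15 to 30 min the median member was 0.50 higher on glucose and 0.61 higher with protocatechuic acid, while the median identifier was 0.05 and 0.10 higher. On glucose, 50 members were higher by more than 0.5 and 4 were lower by more than 0.5, against 15.5% and 14.5% of all identifiers. With protocatechuic acid, 60 members were higher and 7 lower by that amount, against 23.2% and 19.4% of all. In 48 members all 6 later arrays were above both 15 min arrays, against 20.0% of all identifiers. In 2 members, ARAD1C28314g and ARAD1C35398g, all 6 were below both, against 10.8% of all.

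The later steps were smaller. Between 30 min and 2 h the median member was 0.20 lower on glucose and 0.28 lower with protocatechuic acid. Between 2 and 5 h it was 0.15 lower on glucose and 0.36 higher with protocatechuic acid. The opposite signs depend on the scale: the same step was 0.04 and 0.16 with median scaling and 0.39 and 0.05 with spike-in scaling, upward in both media. In this last step 6 members were higher and 3 lower by more than 0.5 on glucose, against 9.23% and 9.13% of all identifiers. With protocatechuic acid 30 members were higher and 9 lower by that amount, against 11.4% and 10.4% of all. The difference between the media in this step rests on 1 array each and was not tested.

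**Figure D2:**
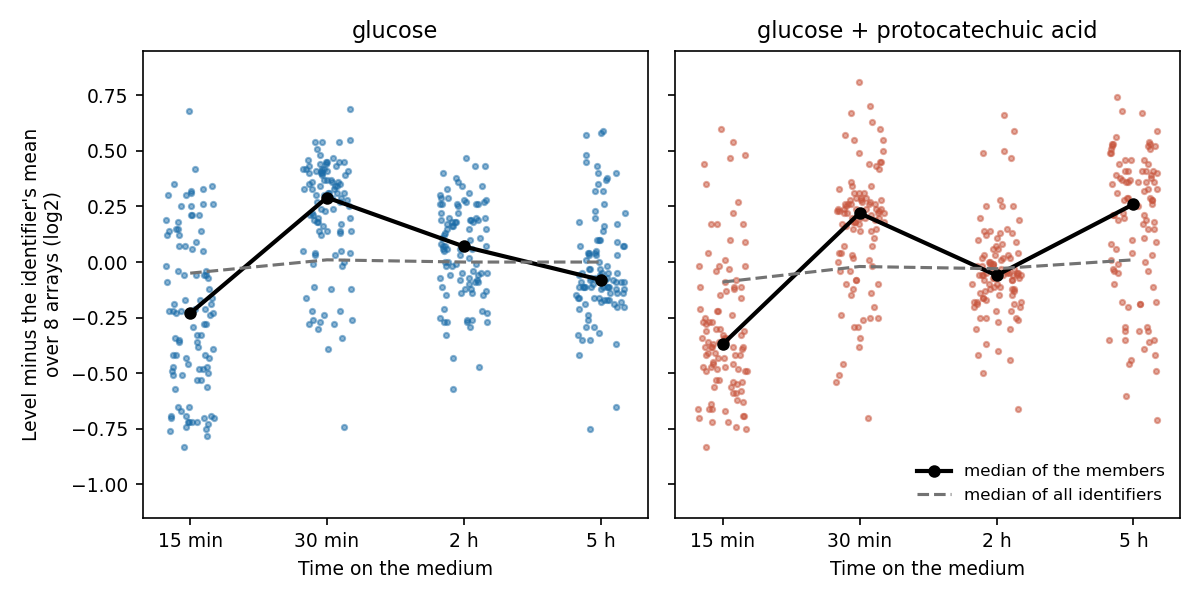
Level of each member minus its own mean over the 8 arrays (log2, vertical axis) by time on the medium, for the glucose arrays (left) and the arrays with protocatechuic acid (right). Each point is 1 member on 1 array, the black line is the median of the members and the dashed line the median of all 6065 identifiers, which stays between -0.09 and 0.01, while the members' median runs from -0.23 to 0.29 on glucose and from -0.37 to 0.26 with protocatechuic acid.

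The scale of the arrays moved with this profile. The 3 arrays on which the members' median was highest (30 min on glucose, 30 min and 5 h with protocatechuic acid) were those with the fewest yeast spots above background, 58.9%, 61.7% and 59.0%, against 64.7% to 70.2% on the other 5. Quantile normalization, which the authors used, gives all arrays the same distribution of values. Its part in the profile was not tested, but other scalings give the values directly. With each array scaled to its median alone, the median member stood at -0.22, 0.04, 0.07 and 0.14 on glucose and at -0.41, 0.06, 0.16 and 0.30 with protocatechuic acid, relative to its own mean. With the array's spike-in controls as the scale, it stood at -0.32, 0.02, 0.04 and 0.45 on glucose and at -0.38, 0.00, 0.16 and 0.16 with protocatechuic acid. The low 15 min arrays were present under all 3 scales, and the drop from 30 min to 2 h was not. An array reads the share of a transcript in the labelled RNA of a whole culture, so fewer cells carrying it and less of it per cell cannot be told apart.

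**Figure D3:**
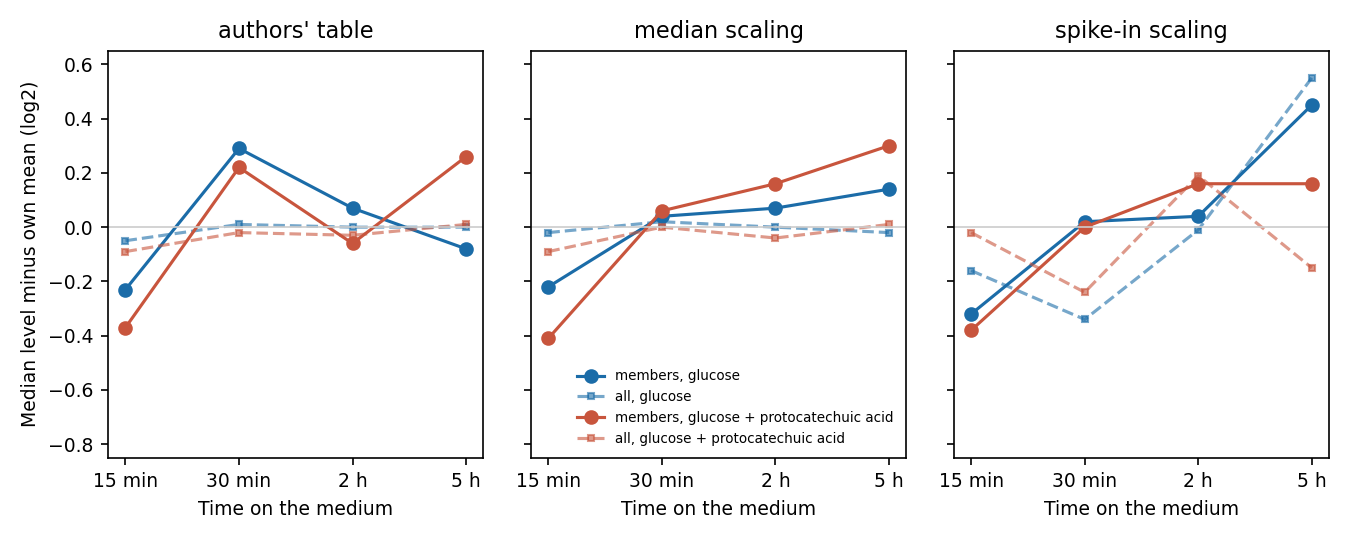
Median level minus own mean over the 8 arrays (log2, vertical axis) by time, for the members (solid lines, circles) and all identifiers (dashed lines, squares), in the authors' table, with median scaling and with spike-in scaling of the processed signal. The 15 min arrays are lowest for the members in each panel, and with spike-in scaling the median of all identifiers itself runs from -0.34 to 0.55.

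The question behind the 2 media was which genes respond to protocatechuic acid. Among the members the median difference, protocatechuic acid minus glucose, stood at -0.01 after 15 min, at -0.12 after both 30 min and 2 h, and at 0.38 after 5 h. At 15 min, 3 members were higher and 10 lower by more than 0.5, against 12.6% and 13.2% of all identifiers. At 30 min, 5 were higher and 1 lower, against 5.06% and 4.47%. At 2 h, 1 was higher and 3 lower, against 6.03% and 4.75%. At 5 h, 27 were higher and 10 lower, against 5.82% and 6.48%. At the first 3 times the members' counts were at or below these shares. At 5 h the count of higher members was above its share, and that of lower members was close to it. In all, 50 members never differed by more than 0.5 between the media, against 59.0% of all identifiers, and 2 members differed by more than 1 at some time.

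The 5 h shift was also seen outside the members, as the next 100 identifiers by the rule had a median of 0.32, with 29 higher and 2 lower by more than 0.5. Only 14 members lay within 0.2 of no difference at 5 h, against 56.1% of all identifiers, while 62 lay above 0.2 and 24 below -0.2. At 30 min and 2 h, 63 and 55 members lay within 0.2, against 58.4% and 59.0% of all. Of the 62 higher members, 54 were also lower at 15 than at 30 min in both media. Of the 14 members between the bounds 10 were, and of the 24 lower members 9 were. These groups were cut on the members' own 5 h values. The same split was not made over all identifiers, so the counts are not read as a trait of the members. The higher members had a last probe ending at a median of base 430 of the gene, the 14 between at base 621.5 and the lower ones at base 611. The largest 5 h difference was that of ARAD1B04114g, at 0.91 (SD over its 10 probes 0.21), and the smallest that of ARAD1B24178g, at -0.87 (SD over its 10 probes 0.12). With spike-in scaling the 5 h median of the members was -0.26 and that of all identifiers -0.70, so the sign of the members' own difference depends on the scale, and they lay above the median identifier under both.

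**Figure D4:**
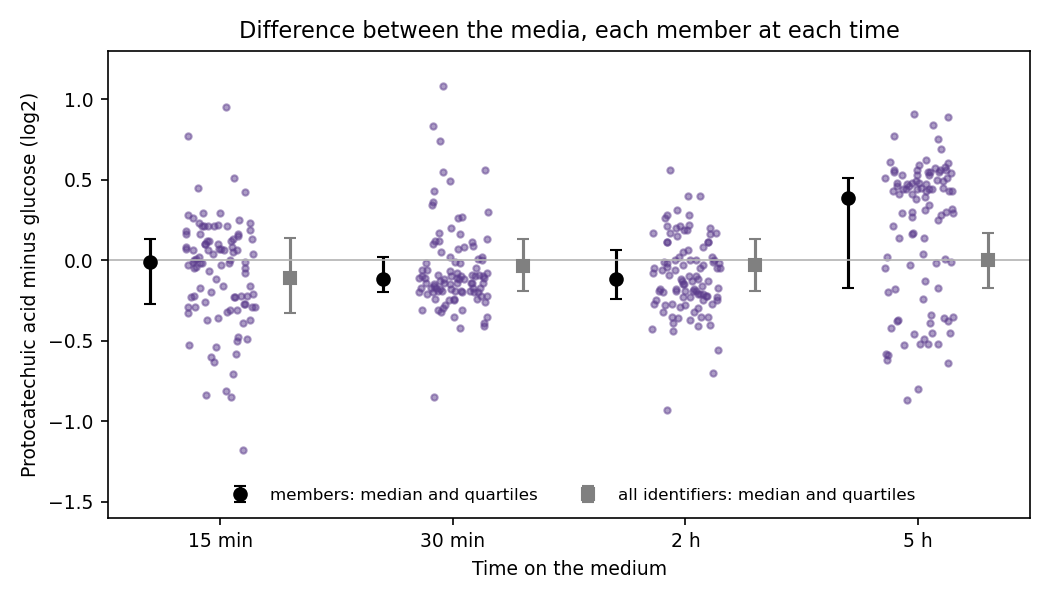
Protocatechuic acid minus glucose (log2, vertical axis) for each of the 100 members at each time (points), with the median and quartiles of the members (black circles and bars) and of all 6065 identifiers (grey squares and bars). At 5 h the members run from -0.87 to 0.91 around a median of 0.38, while the median of all identifiers is at 0.

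Over the 4 time points together, no difference between the media passed the test in the fit described here. A linear model with medium and time was fitted with limma to all 6065 identifiers, and p-values were adjusted over all of them by the Bonferroni method. For the medium 0.0% of all identifiers passed after Bonferroni and 0.0% after Benjamini-Hochberg adjustment, and 5.44% had an unadjusted p under 0.05. Of the members 0 passed either adjustment, and 5 had an unadjusted p under 0.05, 1 of them higher and 4 lower with protocatechuic acid. As each medium and time had 1 array, the residual spread of this fit comes from how the difference varied with time. Over all identifiers the mean difference ran up to 6.61, and the smallest Bonferroni-adjusted p was 0.0981 (limma). In some other fits 1 or 2 of all identifiers passed Bonferroni adjustment. The study itself reported significant upregulation of several genes of aromatic acid breakdown. The lack of calls is thus no sign that levels were equal in the 2 media.

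The largest mean difference was that of ARAD1B24178g, whose values were 10.51, 10.70, 10.43 and 10.53 on glucose and 9.33, 10.59, 9.50 and 9.67 with protocatechuic acid. It was lower with protocatechuic acid at all 4 times, with differences of -1.18, -0.11, -0.93 and -0.87 and a mean of -0.77 ± 0.19 (SE, limma adjusted p = 0.656 by Benjamini-Hochberg). ARAD1B16544g followed with a mean of -0.39 ± 0.09 (limma adjusted p = 0.644). In the other direction ARAD1B14718g was higher at all 4 times, with 10.77, 10.72, 10.54 and 10.03 on glucose and 11.28, 11.02, 10.74 and 10.37 with protocatechuic acid. Its mean difference was 0.34 ± 0.10 (limma adjusted p = 0.745). ARAD1D09922g was also higher at all 4 times, by 0.12, 0.13, 0.16 and 0.89, which gave 0.32 ± 0.16 (limma adjusted p = 0.836). Across the members, 3 were higher and 8 lower with protocatechuic acid at all 4 times, against 4.9% and 10.3% of all identifiers.

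A single member had media that did not overlap. ARAD1C06556g measured 11.58, 11.65, 11.64 and 11.64 on glucose and 11.05, 11.50, 11.45 and 11.15 with protocatechuic acid. Non-overlapping media were found in 0.824% of all identifiers with the higher values with protocatechuic acid and in 1.07% with the lower, so the members' count of 0 and 1 lies at that background.

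Later times (2 and 5 h) against earlier ones (15 and 30 min) gave more calls over the whole array. The media are averaged in this difference but are not replicates. Its residual spread is that of the medium fit, and holds no spread between 15 and 30 min or between 2 and 5 h. After Bonferroni adjustment 0.165% of all identifiers passed, after Benjamini-Hochberg adjustment 13.3%, and 31.2% had an unadjusted p under 0.05. The members gave 0, 5 and 10. The rule limits the range of a member, and with it the size of this difference, so nothing is read from these counts. They also depend on the scale: with median scaling 31 members passed Benjamini-Hochberg adjustment and 56 had an unadjusted p under 0.05, against 14.8% and 31.7% of all. The median later-minus-earlier difference was 0.09 in the members and 0.01 over all identifiers. Its direction rests on single time points, as it was -0.19 without the 15 min arrays and 0.35 without the 30 min arrays, and it was 0.40 with spike-in scaling.

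The 5 members past the Benjamini-Hochberg adjustment were 3 with a difference upward and 2 downward. The 2 largest differences upward were those of ARAD1C01584g and ARAD1D33418g. ARAD1C01584g measured 11.11, 11.65, 12.09 and 12.00 on glucose and 10.90, 11.37, 12.21 and 11.62 with protocatechuic acid, a difference of 0.72 ± 0.12 (SE, limma adjusted p = 0.021 by Benjamini-Hochberg and 1 by Bonferroni). ARAD1D33418g measured 11.24, 11.76, 12.12 and 12.04 on glucose and 10.97, 11.74, 12.00 and 11.87 with protocatechuic acid, a difference of 0.58 ± 0.09 (limma adjusted p = 0.0209 by Benjamini-Hochberg). All 4 later values of ARAD1D33418g were above its 4 earlier ones, while in ARAD1C01584g the highest earlier value, 11.65, lay just above the lowest later one, 11.62. In the other direction ARAD1D10736g measured 10.21, 10.57, 9.87 and 9.60 on glucose and 10.19, 10.26, 9.87 and 9.56 with protocatechuic acid, a difference of -0.58 ± 0.10 (limma adjusted p = 0.0244 by Benjamini-Hochberg). ARAD1B14718g, described above, passed with -0.53 ± 0.10 (limma adjusted p = 0.0279 by Benjamini-Hochberg), and so did ARAD1C08074g with 0.49 ± 0.09 (limma adjusted p = 0.0254). ARAD1C04752g had a difference of -0.53 ± 0.13 and did not pass (limma adjusted p = 0.0529 by Benjamini-Hochberg).

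These calls depended on the time points and on the scale. Without the 15 min arrays ARAD1D33418g stood at 0.26, ARAD1C01584g at 0.47 and ARAD1C08074g at 0.19 (limma adjusted p = 0.189, 0.118 and 0.293 by Benjamini-Hochberg). Of the 5 members, only ARAD1D10736g passed without the 15 min arrays, and it lay at -0.34 with median scaling (limma adjusted p = 0.0746). None of the 5 passed without the 2 h arrays, without the 5 h arrays, with the processed signal or with spike-in scaling. Later and earlier arrays did not overlap in 1 member upward and 2 downward, against 8.72% and 5.33% of all identifiers.

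Every chromosome held members. Chromosome A held 13 of 867 identifiers, B 19 of 1045, C 36 of 1984 and D 32 of 2169, which is 1.5%, 1.82%, 1.81% and 1.48% of each. When each chromosome was cut into 10 equal runs of identifiers, the fullest run, the second of chromosome C, held 8 members. There were 5 runs without a member, 2 on A, 1 on B and 2 on D. The longest stretch without a member ran from ARAD1D19008g to ARAD1D26686g, with 316 identifiers between them. Inside it lies ARAD1D23232g, with a lowest value of 11.89, which was left out only for its range of 1.96. None of the 80 identifiers that are among the 10 nearest to either end of a chromosome was a member. Members make up 1.65% of all identifiers, so few can be looked for among 80 or in a single run. These counts were not tested and are not read as clustering or as avoidance of the ends.

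Among the members, 2 pairs stood next to each other by number, with no run of 3 or more. Members are a small share of the identifiers, so few such pairs can be looked for, and the count was not tested. ARAD1D33814g and ARAD1D33836g had similar values: ARAD1D33814g measured 9.41, 10.51, 10.20 and 9.98 on glucose and 9.63, 10.41, 10.12 and 10.54 with protocatechuic acid. ARAD1D33836g measured 10.18, 11.36, 11.06 and 10.85 on glucose and 10.26, 11.21, 10.88 and 11.43 with protocatechuic acid. Both were lowest on the glucose array at 15 min and highest with protocatechuic acid at 5 h. The pair ARAD1C25256g and ARAD1C25278g differed: the former was the steadiest member, and the latter measured 10.32, 11.50, 11.30 and 10.87 on glucose and 10.48, 11.26, 10.96 and 11.43 with protocatechuic acid, a range of 1.18. The strand and spacing of these pairs were not analysed here.

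**Figure D5:**
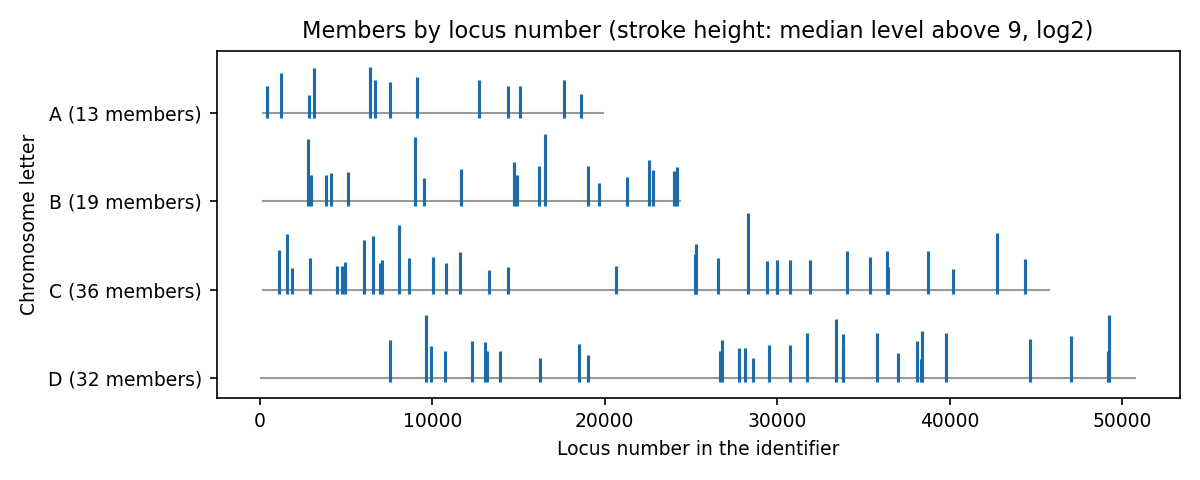
Position of the 100 members by the locus number in their identifier (horizontal axis), 1 line for each chromosome letter from its first to its last identifier. Each stroke is 1 member, and its height grows with the median level above 9 (log2). Members lie along all 4 chromosomes, with 2 directly neighbouring pairs and with a stretch of 316 identifiers without a member on chromosome D.

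Most members had a short probed length, as did the identifiers that came next by the rule. Probe names end in a number, taken here as the first base that the 60-base probe covers. The last probe of a member ended at a median of base 455, with quartiles of 356 and 702 and extremes of 189 and 1380. Over all identifiers the median was 1176, and 66 members against 16.2% of all identifiers ended before base 600. In the next 100 identifiers by the rule the median was 544, and 55 ended before base 600. The array carries up to 10 probes a gene by length, and the members had a median of 6 probes against 10 over all. In 16 members the value rests on 3 probes, the minimum allowed.

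Within a member the probes with higher numbers were mostly brighter. Over the 75 members with 5 or more probes, the level changed by a median of 0.40 per 100 bases along the gene and increased in 58 of them. The same slope had a median of 0.29 in the next 100 identifiers by the rule. It was 0.15 in the other identifiers ending before base 600 and 0.00 over all identifiers. Among those with 5 or more probes, the level increased in 89.2%, 72.0% and 49.3% of these sets, against 77.3% of the members. The slope is that of the deposited log2 values with the 60-base probes placed by their names, and the sequences of the probes were not used here. Probe names that end in X occur in 4 members and make up the whole probe set of 1, ARAD1C04752g. What the X marks is not given in the sources used here.

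Of the 10 identifiers that the study's text names for the breakdown of aromatic acids, 9 had 3 or more probes and 0 were members. The nearest was ARAD1D18502g, whose lowest value of 8.52 put it at rank 214. ARAD1D18480g, the member with an annotation in the pathway scheme, measured 10.20, 10.87, 10.44 and 10.42 on glucose and 10.20, 10.82, 10.39 and 10.94 with protocatechuic acid. It was lowest on both 15 min arrays, and its media differed by 0.00, -0.06, -0.06 and 0.53 at the 4 times.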

How the data were processed

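Total RNA of 8 samples was labelled with Cy3 and hybridised to arrays of 62976 spots, 61537 of them with one of 56312 yeast probes. Whether the time points of a medium came from the same culture or from separate ones is not stated. The authors' deposited table holds log2 values after normexp background correction and quantile normalization with limma. Recomputing them with an offset of 16 gave the same values to within 5e-09. The deposited scanner files hold, per the file headers, spot and background intensity from Agilent Feature Extraction 11.5.1.1, and marks coded 0 or 1 for spots above background, saturated or outlying. The table was used for all values.

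Probe names ending in X were counted as probes of their identifier. Members were the 100 identifiers with the highest lowest value, 3 or more probes and a range under 1.5. The members and lists were chosen with earlier results of these data known. Named are the 10 highest members, the 2 extremes in each direction of each fitted difference and of the range, the last member, neighbouring members, identifiers just outside each limit and a member that the study names. Members singled out at 5 h or for a lack of overlap were chosen after their values were seen. Gene lists by product were not applied, as no products were given.

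Differences were fitted with limma 3.58.1 (R 4.3.3), with time as a block, on 6065 identifiers (3 residual degrees of freedom). With 1 array per group, the p-values of both fitted differences rest on how the difference between media varied over time points, which may be technical. The number of arrays limits the precision. On simulated data with 200 of 6065 identifiers changed, 93% (medium) and 95% (later against earlier) of the changed identifiers were called after Benjamini-Hochberg adjustment, with 12 and 15 false calls. The added changes were 1 log2 unit or more in size, larger than any fitted difference of a member. The noise was drawn from the spread of the same fit. These shares check the code and say nothing about differences as small as those of the members. Alternative background corrections, scalings, filters, probe summaries, adjustments and left-out time points were also run. Figures were drawn with matplotlib 3.10.9.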

Additional observations from a re-analysis of the deposited data

Results flagged for a closer look

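Results are given here where 2 groups moved in opposite directions, each on 1 array per point, and none of these differences was tested. With protocatechuic acid the median of the 100 members stood at -0.12 relative to glucose after 30 min, at -0.12 after 2 h and at 0.38 after 5 h. The median step from 2 to 5 h was -0.15 on glucose and 0.36 with protocatechuic acid. Both contrasts of sign depend on the scale: with spike-in scaling the 5 h difference was -0.26, and the step from 2 to 5 h was upward in both media with median scaling (0.04 and 0.16) and with spike-in scaling (0.39 and 0.05). ARAD1B08998g, whose level has an SD of 3.73 over its 10 probes, was 0.86 higher at 30 than at 15 min on glucose and stood at -0.93 for the same step with protocatechuic acid.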

How the results depend on the processing

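Of the 100 members, 55 were also chosen with a range limit of 1.0, and between 75 and 100 under the other alternatives, the lowest of these with 5 or more probes required. Under the 6 other ways to make the values, 87 to 100 members kept a range under 1.5. For the medium, 0 members passed Bonferroni adjustment in any fit. For later against earlier times, 0 passed Bonferroni and 5 passed Benjamini-Hochberg adjustment, a count that was 31 with median scaling and between 0 and 6 in the other fits. The median later-minus-earlier difference of the members, 0.09, was 0.40 with spike-in scaling, which moved the median of all identifiers to 0.29, and ran from -0.19 without 15 min to 0.35 without 30 min. With spike-in scaling the members' median difference between media was 0.14 at 2 h and -0.26 at 5 h, and the step from 2 to 5 h on glucose was 0.39. The step from 30 min to 2 h with protocatechuic acid was 0.10 with median scaling and 0.13 with spike-in scaling. The causes were not tested. The spike-in scaling, the runs without probes ending in X and those without the 15 min or the 5 h arrays were chosen after seeing the data. The fit of the medium was paired by time point, and without the time block 0 members passed as well.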
